A study of Mus musculus with 51 samples.

Results

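The chromatin of 10 genes that mark or maintain pluripotency in the early mouse embryo (Pou5f1, Nanog, Sox2, Sall2, Utf1, Fgf5, Otx2, Pou3f1, Zic2 and Tdgf1) was compared between epiblast and extra-embryonic ectoderm (ExE) at embryonic day 6.5 (E6.5). The genes were taken by name and are 10 of 20780 autosomal protein-coding genes measured. Their signal was read from 196 windows of 1 kb that cover each gene and 5 kb on either side, and their alleles from 44 peaks, of 150793, that the deposited allelic tables assign to a member by name. Trimethylation of histone H3 at lysine 4 (H3K4me3), lysine 27 (H3K27me3) and lysine 36 (H3K36me3) was measured by ultra-low-input native ChIP-seq, which immunoprecipitates unfixed nucleosomes from few cells, in 36 libraries with 15 input libraries. Each of the 18 groups of a mark, a tissue and a cross held 2 libraries, each made from a pool of dissected embryos. Each pool supplied aliquots for every antibody and for input, so that libraries of different marks mostly share pools and are not independent of each other.

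The crosses are written with the mother first. B6/CAST embryos had a C57BL6/Babr mother and a CAST/EiJ father, and CAST/B6 embryos came from the reciprocal mating, so both are wild type and differ in which parent gave which genome. In matDKO/CAST embryos the mother carried floxed Dnmt3a and Dnmt3b (fl/fl for each) with Zp3-cre, which is expressed in the growing oocyte, on a mixed B6 and 129 background, and the father was CAST/EiJ. These eggs therefore lacked the DNA methylation that both enzymes lay down in the oocyte, while the embryo's paternal copies of the genes stayed intact. All comparisons were made over the libraries as replicates. The pools of a group were separate collections of embryos, so that p-values measure the spread between pools.

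Pluripotency is the capacity of epiblast cells to give rise to every tissue of the embryo proper. A core of transcription factors holds the genes of this state open, and the post-implantation epiblast adds further factors that prepare it for the germ layers. The ExE is the trophoblast tissue next to the epiblast that feeds the placenta, and its stem cells use Sox2 but not Pou5f1 or Nanog. H3K4me3 marks the starts of active and poised genes, H3K27me3 is laid by Polycomb complexes over repressed developmental genes, and H3K36me3 accumulates along the bodies of genes that are being transcribed.

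The 250 bases before the annotated RefSeq start are shown for 5 genes (build GRCm38, 5′ to 3′ in the direction of transcription), with each CpG dinucleotide in capitals. At the gene starts of the wild types, Pou5f1 and Sall2 had the largest H3K4me3 differences between the tissues among the 10 genes and Fgf5 the largest H3K27me3 difference, Fgf5 also had the largest wild-type H3K36me3 difference, and Sox2 and Utf1 are shown as genes with smaller H3K4me3 differences. Sall2 is shown at both of its RefSeq starts because they behaved differently.
Pou5f1 (chr17:35505782-35506031, plus strand): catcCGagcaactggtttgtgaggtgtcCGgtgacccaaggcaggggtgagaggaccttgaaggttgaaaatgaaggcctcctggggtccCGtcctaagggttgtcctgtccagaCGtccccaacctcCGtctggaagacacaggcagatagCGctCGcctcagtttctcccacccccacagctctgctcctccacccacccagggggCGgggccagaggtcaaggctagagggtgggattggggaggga
Sall2, upstream start (chr14:52328671-52328920, minus strand): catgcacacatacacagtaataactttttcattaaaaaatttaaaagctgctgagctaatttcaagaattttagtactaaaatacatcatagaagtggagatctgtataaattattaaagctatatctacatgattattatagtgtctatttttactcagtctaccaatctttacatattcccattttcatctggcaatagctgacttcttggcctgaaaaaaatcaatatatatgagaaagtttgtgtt
Sall2, downstream start (chr14:52316324-52316573, minus strand): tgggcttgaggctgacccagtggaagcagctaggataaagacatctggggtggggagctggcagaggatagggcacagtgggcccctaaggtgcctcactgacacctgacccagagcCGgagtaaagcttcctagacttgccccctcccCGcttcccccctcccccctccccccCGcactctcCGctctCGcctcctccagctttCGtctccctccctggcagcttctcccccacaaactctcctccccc
Fgf5 (chr5:98253934-98254183, plus strand): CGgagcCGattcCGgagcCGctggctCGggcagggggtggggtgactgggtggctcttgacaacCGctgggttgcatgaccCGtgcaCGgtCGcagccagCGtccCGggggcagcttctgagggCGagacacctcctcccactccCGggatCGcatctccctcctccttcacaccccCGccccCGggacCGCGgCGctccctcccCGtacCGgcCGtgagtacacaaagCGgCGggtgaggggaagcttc
Sox2 (chr3:34649745-34649994, plus strand): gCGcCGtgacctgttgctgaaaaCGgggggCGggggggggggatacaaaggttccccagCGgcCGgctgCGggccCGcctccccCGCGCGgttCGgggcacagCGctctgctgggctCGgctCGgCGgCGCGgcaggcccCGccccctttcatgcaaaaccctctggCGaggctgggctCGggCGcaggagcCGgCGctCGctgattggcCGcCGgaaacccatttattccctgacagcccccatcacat
Utf1 (chr7:139943606-139943855, plus strand): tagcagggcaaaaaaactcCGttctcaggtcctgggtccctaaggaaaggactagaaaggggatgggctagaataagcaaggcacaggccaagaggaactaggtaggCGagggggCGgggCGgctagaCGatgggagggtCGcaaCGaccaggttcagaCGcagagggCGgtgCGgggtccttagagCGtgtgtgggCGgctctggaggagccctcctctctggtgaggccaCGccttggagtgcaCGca

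These windows hold 27 CpG dinucleotides in Sox2, 24 in Fgf5, 14 in Utf1, 8 in Pou5f1, and 0 at the upstream and 6 at the downstream start of Sall2. With the 50 bases after the start included, Sox2 held 27 and Fgf5 29 in 300 bases, more than 84.5% and 87.1% of the 32851 promoters of the RefSeq table. The upstream Sall2 promoter held 1, and 5.43% of promoters held fewer, while the median promoter held 7. That table had an entry for 8 of the 10 genes, with 14 promoters between them, and Pou3f1 and Zic2 are named only. Relative to the gene start used for the signal, the RefSeq start of Sox2 lies at -410 bp, that of Pou5f1 at 14 bp, that of Utf1 at 67 bp and the upstream start of Sall2 at 92 bp.

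On either strand of those 300 bases, the octamer ATGCAAAT, the site class that Pou5f1 protein binds, was in 0 of the 14 promoters against 1.74% of all promoters. The SOX core ACAAT was at both Nanog starts, the upstream Sall2 start, the first and the last of the 4 Otx2 starts and the downstream Pou5f1 start, against 31.0% of all promoters. The GC box GGGCGG was at Sox2, Fgf5, Utf1, Tdgf1 and the upstream Pou5f1 start, against 35.7%, and it occurred 4 times at Utf1. The sequence TATAAA was at Fgf5, the first Otx2 start and the upstream Sall2 start, against 13.6%. These matches are a description of the letters in the windows.

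The values below are in RPKM, the reads of a 1 kb window scaled by its length and by the mapped reads of the library, as the authors computed them. For H3K4me3 and H3K27me3 they were averaged over the windows that overlap the 1000 bp on either side of the gene start, and for H3K36me3 over the gene body. A difference between the tissues is ExE minus epiblast on the scale log2(RPKM + 0.5), with its standard error (SE) and a p-value adjusted over all 20780 genes (limma, two-sided, threshold 0.05). In pooled tissue, fewer cells that carry a mark and less of the mark per cell cannot be told apart. ChIP libraries held 2.09 to 22.9 M reads (M for a factor of 1e6) and the input over the 10 promoters was 0.117 to 0.828 RPKM, so that H3K4me3 stood above that range at every promoter in every library, while H3K27me3 at several promoters did not. The summed H3K4me3 of 12 ExE marker genes was 138 to 204 RPKM in the 6 epiblast libraries and 182 to 274 RPKM in the 6 ExE libraries, where 1 marker was at 0 in 1 matDKO/CAST library. That of 13 visceral endoderm markers was 73.5 to 123 and 96.5 to 156 RPKM, that of 7 decidua markers 32.5 to 58.3 and 23.0 to 39.0 RPKM, and that of 5 streak mesoderm markers 61.0 to 120 and 44.5 to 75.3 RPKM. In wild-type ExE the visceral endoderm markers had higher H3K4me3 at 5 and lower at 1 of 13, lower H3K27me3 at 6 and higher H3K36me3 at 10. The ExE markers had higher H3K4me3 at 3, lower H3K27me3 at 8 and higher H3K36me3 at 11 of 12. Of the 7 decidua markers 3 had lower H3K4me3 and 3 lower H3K27me3, and no streak mesoderm marker was called. Of all genes, 2.01% had higher and 7.76% lower H3K4me3, 9.41% lower H3K27me3 and 31.0% higher H3K36me3. No marker list was at or near 0 in either tissue, and the part of other cells in the differences below was not tested.

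H3K4me3 was lower in ExE than in epiblast at 6 of the 10 genes in the wild-type crosses, while 7.76% of all genes were called lower. These were Pou5f1, Nanog, Sall2, Fgf5, Otx2 and Tdgf1, with differences of -1.44 to -2.61. Sox2, Utf1, Pou3f1 and Zic2 were not called and had 11.7 to 44.3 RPKM in wild-type ExE. The median difference over the 10 genes was -1.49, against -0.02 over all genes.

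Pou5f1 encodes the POU-domain factor at the centre of the pluripotency network. Its promoter (chr17:35506018-35510772 for the gene, plus strand) had 39.1 and 39.0 RPKM of H3K4me3 in B6/CAST epiblast, 47.2 and 55.4 in CAST/B6 epiblast and 46.5 and 34.4 in matDKO/CAST epiblast. In ExE it had 7.15 and 10.6 RPKM in B6/CAST, 3.79 and 10.0 in CAST/B6, and 3.06 and 12.1 in matDKO/CAST. All 6 epiblast libraries lay above all 6 ExE libraries, and the wild-type means differed 5.73-fold, with a log2 difference of -2.52 (SE 0.41, adjusted p = 0.00563). The gene Tcf19 overlaps the 5 kb around it.

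Nanog, a homeobox factor of the same core, had less H3K4me3 than Pou5f1 in every epiblast library. Its promoter (chr6:122707489-122714633, plus strand) had 13.0, 12.9, 14.1 and 12.8 RPKM in the wild-type epiblast libraries and 16.2 and 10.4 RPKM in matDKO/CAST. In wild-type ExE it had 3.81, 5.38, 2.00 and 4.49 RPKM, and 1.67 and 4.15 RPKM in matDKO/CAST ExE. The tissues did not overlap, and the wild-type difference was -1.70 (SE 0.30, adjusted p = 0.00841).

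Sox2, the HMG-box partner of Pou5f1, had a smaller fitted H3K4me3 difference than Pou5f1 and Nanog, and whether the genes differ in it was not tested. The promoter (chr3:34650405-34652461, plus strand) had 37.5 and 29.5 RPKM in B6/CAST epiblast, 30.7 and 32.4 in CAST/B6 and 32.1 and 20.4 in matDKO/CAST. In ExE the values were 23.2 and 21.4, 15.9 and 23.1, and 17.4 and 24.0 RPKM for the same crosses. The wild-type tissues did not overlap, but the matDKO/CAST libraries did, and the wild-type difference of -0.63 (95% interval -1.07 to -0.20, SE 0.19) missed the threshold at an adjusted p of 0.080. With the replicate number as a block the difference was called, at -0.51 and an adjusted p of 0.036, but CAST/B6 enters that fit by replicate 2 only. Sox2 was also called lower when genes under 0.5 RPKM were left out (adjusted p = 0.00611), with 2500 bp (-0.73, adjusted p = 0.037) or 5 kb on each side (-0.86, adjusted p = 0.014), after quantile normalization (adjusted p = 0.0043) and with edgeR (-0.58, adjusted p = 1.1e-06), so its call depended on these choices while its direction did not. Its H3K4me3 peak in the authors' lists spanned 36500 bp in B6/CAST epiblast and 32500 bp in B6/CAST ExE, and 35500 and 7500 bp in CAST/B6.

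Sall2, a zinc-finger factor of the SALL family, had the largest H3K4me3 difference of the 10 genes. At its gene start (chr14:52311172-52328762, minus strand) the wild-type epiblast libraries had 19.3, 20.1, 21.4 and 24.3 RPKM and the matDKO/CAST libraries 22.2 and 20.4. ExE had 2.93, 4.97, 1.90 and 3.06 RPKM in the wild types and 2.13 and 3.76 in matDKO/CAST. Every ExE library was under every epiblast library, and the wild-type difference was -2.61 (SE 0.21, adjusted p = 0.00137).

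The values above are those of the upstream start of Sall2. At the other RefSeq start, 12439 bp downstream and printed above, H3K4me3 was 19.9 to 28.6 RPKM in the 4 wild-type epiblast libraries and 16.6 to 21.2 RPKM in the 4 ExE libraries. The difference there was -0.30 (95% interval -0.62 to 0.01, adjusted p = 0.27), so that a change of the size seen upstream lies far outside its interval. A direct test between the starts was not made. H3K27me3 at the downstream start was 0.250 to 0.666 RPKM in epiblast and 0.996 to 1.43 RPKM in ExE, higher by 0.78 (adjusted p = 0.020). The other starts were looked at after the values at the gene starts had been seen.

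Utf1, a chromatin-bound factor of undifferentiated embryonic cells, had no H3K4me3 difference called by limma. Its promoter (chr7:139943789-139945112, plus strand) had 21.2, 17.8, 16.9 and 27.9 RPKM in wild-type epiblast and 17.8, 14.5, 13.4 and 17.2 RPKM in wild-type ExE, with overlap. The matDKO/CAST libraries had 21.0 and 18.1 RPKM in epiblast and 11.9 and 21.0 RPKM in ExE. The wild-type difference was -0.38 (95% interval -0.88 to 0.11, adjusted p = 0.42), and edgeR called it lower (-0.33, adjusted p = 0.030). Utf1 shares its peaks with the neighbouring gene Kndc1, which overlaps the 5 kb around it.

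Otx2, Pou3f1 and Zic2 encode transcription factors of the post-implantation epiblast that later act in the anterior neural plate. Otx2 (chr14:48657677-48673819, minus strand) had 13.4, 15.1, 13.8 and 13.1 RPKM of H3K4me3 in wild-type epiblast and 14.5 and 10.8 in matDKO/CAST epiblast. In ExE it had 6.12, 6.97, 2.46 and 4.85 RPKM in the wild types and 3.14 and 4.31 in matDKO/CAST. The tissues did not overlap, and the wild-type difference was -1.44 (SE 0.20, adjusted p = 0.00295).

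Otx2 showed a called difference at each of its RefSeq starts. These lie 6175, 6311, 8710 and 11085 bp downstream of the gene start, of which the first pair fall in the same windows, and H3K4me3 differed by -2.48 at that pair and by -2.41 and -2.18 at the others, with adjusted p-values of 0.00170 to 0.00241. The start at 8710 bp had the highest H3K4me3 of them, 44.1 to 63.6 RPKM in wild-type epiblast against 3.90 to 15.9 RPKM in ExE. The second start of Pou5f1, 2789 bp downstream, had 18.4 to 28.8 RPKM in epiblast and 1.90 to 5.84 RPKM in ExE, a difference of -2.39 (adjusted p = 0.00402).

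Pou3f1 and Zic2 were not called by limma at the promoter windows. Pou3f1 (chr4:124656807-124660655, plus strand) had 19.4, 15.9, 15.5 and 16.1 RPKM in wild-type epiblast and 15.4, 13.4, 11.7 and 15 RPKM in wild-type ExE, a difference of -0.26 (95% interval -0.58 to 0.06, adjusted p = 0.38). Zic2 (chr14:122475435-122479852, plus strand) had the highest promoter H3K4me3 of the 10 genes in ExE, at 36.5, 35.3, 29.8 and 44.3 RPKM, against 51.1, 38.1, 63.3 and 59.0 RPKM in epiblast. Its difference was -0.52 (95% interval -1.02 to -0.02, adjusted p = 0.23), and its tissues overlapped. In matDKO/CAST, Pou3f1 had 17.7 and 13.3 RPKM in epiblast and 13.6 and 16.9 RPKM in ExE, and Zic2 had 54.0 and 31.5 against 29.7 and 40.3 RPKM. Zic2 was called lower with 5 kb (-1.09, adjusted p = 0.014) or 2500 bp on each side (-0.82, adjusted p = 0.046), without genes under 0.5 RPKM (adjusted p = 0.0323), after quantile normalization (-0.39, adjusted p = 0.0168) and with edgeR (-0.46, adjusted p = 6.2e-05).

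Fgf5 and Tdgf1 act outside the cell. Fgf5, a secreted growth factor and a standard marker of the post-implantation epiblast (chr5:98254184-98277030, plus strand), had 39.3, 33.2, 44.5 and 44.1 RPKM in wild-type epiblast and 41.0 and 27.3 in matDKO/CAST. Its ExE values were 15.6, 16.6, 8.09 and 15.7 RPKM in the wild types and 13.3 and 16.1 in matDKO/CAST, a wild-type difference of -1.53 (SE 0.21, adjusted p = 0.00280). Fgf5 thus fell without reaching the low levels of Sall2 or Nanog, and its ExE promoter still had more H3K4me3 than that of Pou5f1 in each of the 6 libraries.

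Tdgf1, the membrane-bound co-receptor of Nodal (chr9:110939603-110946158, minus strand), had 20.2, 19.2, 17.0 and 14.1 RPKM in wild-type epiblast and 5.36, 6.30, 2.13 and 4.71 RPKM in wild-type ExE. The matDKO/CAST libraries had 19.7 and 15.4 RPKM in epiblast and 2.02 and 4.31 RPKM in ExE. No ExE library reached an epiblast library, and the wild-type difference was -1.89 (SE 0.26, adjusted p = 0.00281).

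**Figure D1:**
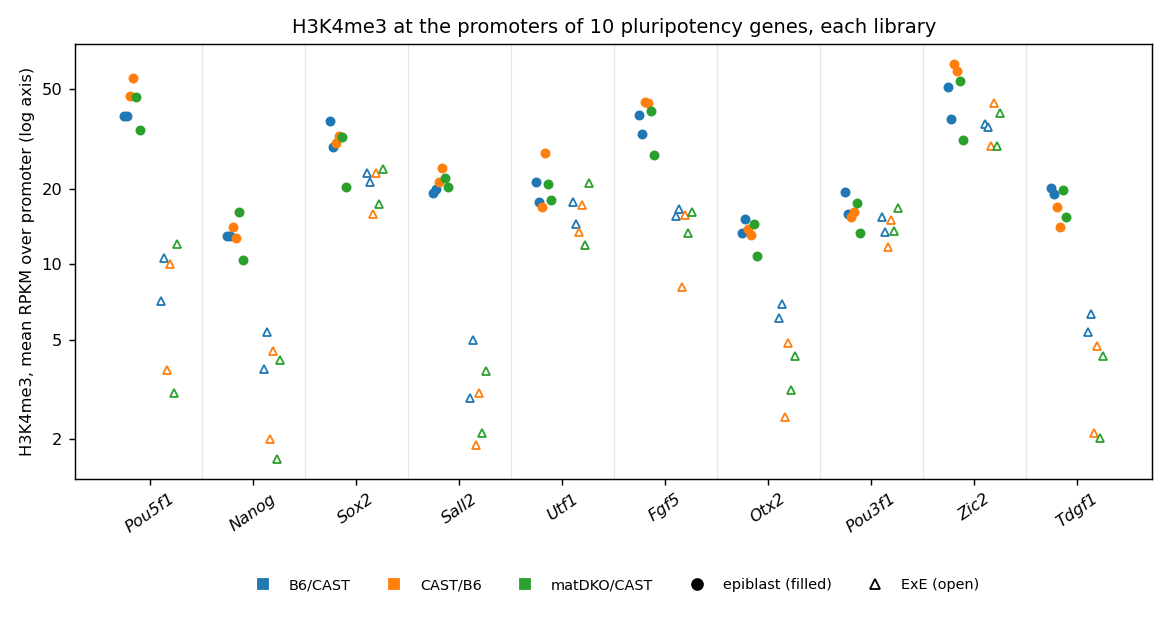
H3K4me3 over the promoter of each of the 10 genes in RPKM (log axis), a point for each library, in epiblast and ExE and by cross. Epiblast and ExE points are apart in all crosses for Pou5f1, Nanog, Sall2, Fgf5, Otx2 and Tdgf1, and the wild-type points overlap for Utf1 and Zic2.

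The ExE libraries did not all have the same level. The summed H3K4me3 of the 6 called genes was 41.0 and 50.8 RPKM in B6/CAST ExE, 20.4 and 42.8 in CAST/B6 ExE and 25.4 and 44.8 in matDKO/CAST ExE, and it was 119 to 164 RPKM in epiblast. The other 4 genes summed to 92.9 and 84.6, 70.9 and 99.6, and 72.6 and 102 RPKM in the same ExE libraries. The lower CAST/B6 and matDKO/CAST libraries were low for both sets and held 16.0 and 13.2 M reads, against 4.01 to 17.9 M over the H3K4me3 libraries. The part of depth or of other library properties in these levels was not tested.

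All 6 wild-type calls held when any single library was left out and at a threshold of 0.01. In the contrast of B6/CAST alone 1 of the 10 genes was called, Sall2, and in that of CAST/B6 alone 6. Here and below, contrasts of 1 cross alone kept the spread of the fit over all 12 libraries of the mark. Over all genes the wild-type fit called 417 higher and 1613 lower in ExE, which after quantile normalization became 2324 and 2294, and the members then called lower were 8. Tested on reads recovered from the RPKM with edgeR, 9 of the 10 were called lower, all but Pou3f1, against 14.7% of all genes.

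In matDKO/CAST, H3K4me3 was lower in ExE at 5 of the 10 genes, against 4.72% of all genes. Sall2 differed by -2.70 (adjusted p = 0.00425), Pou5f1 by -2.59 (adjusted p = 0.038), Tdgf1 by -2.36 (adjusted p = 0.00949), Nanog by -2.09 (adjusted p = 0.026) and Otx2 by -1.64 (adjusted p = 0.013). Fgf5 differed by -1.16 and missed the threshold (adjusted p = 0.065), but it was called without genes under 0.5 RPKM, with wider regions, after quantile normalization and with edgeR (adjusted p of 3.8e-09 to 0.041). With the replicate number as a block 0 of the 10 were called, as were 0 of all genes. That fit rests on 1 matDKO/CAST pair, replicate 2, because the remaining matDKO/CAST libraries have no partner of the same number. Without single libraries the count was 1 to 5, and it was 1 without matDKO/CAST epiblast replicate 1 or ExE replicate 2 and 3 without epiblast replicate 2.

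H3K27me3 was higher in wild-type ExE at 4 of the 10 genes, Fgf5, Otx2, Sall2 and Tdgf1, against 5.64% of all genes. All 4 were among the 6 with less H3K4me3 there. The median difference over the 10 genes was 0.49, against -0.05 over all genes. Levels of this mark were low beside those of H3K4me3, at 0.0493 to 4.96 RPKM over all libraries and genes.

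The Fgf5 promoter had 0.740, 0.330, 0.607 and 0.749 RPKM of H3K27me3 in wild-type epiblast and 2.03, 1.70, 2.82 and 1.36 RPKM in wild-type ExE. In matDKO/CAST it had 0.328 and 0.635 RPKM in epiblast and 2.08 and 1.33 RPKM in ExE. All 6 ExE libraries were above all 6 epiblast libraries, and the wild-type difference was 1.15 (SE 0.22, adjusted p = 0.00961).

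Otx2 had 1.41, 0.733, 1.91 and 1.62 RPKM in wild-type epiblast and 3.25, 3.38, 4.15 and 3.08 RPKM in wild-type ExE. Its matDKO/CAST values were 1.04 and 1.36 RPKM in epiblast and 4.35 and 2.33 RPKM in ExE. The tissues did not overlap, and the wild-type difference was 1.08 (SE 0.20, adjusted p = 0.00824). At the 4 downstream starts of Otx2, read from 3 sets of windows, the difference was 1.44 to 1.86, with adjusted p-values of 0.00183 to 0.00605.

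Sall2 had 1.65, 0.953, 2.49 and 1.50 RPKM in wild-type epiblast against 3.5, 2.71, 4.22 and 3.28 RPKM in wild-type ExE. Tdgf1 was much lower, with 0.296, 0.0733, 0.314 and 0.250 RPKM in wild-type epiblast and 0.559, 0.620, 0.757 and 0.747 RPKM in wild-type ExE, none of them above the highest input value. Neither pair of wild-type tissues overlapped, and the differences were 0.90 for Sall2 (SE 0.21, adjusted p = 0.022) and 0.68 for Tdgf1 (SE 0.15, adjusted p = 0.017). Both calls depended on single libraries. Sall2 was not called without B6/CAST epiblast replicate 2, B6/CAST ExE replicate 1, CAST/B6 epiblast replicate 2 or either CAST/B6 ExE library (adjusted p of 0.055 to 0.085). Tdgf1 was not called without these or without B6/CAST ExE replicate 2 (adjusted p of 0.055 to 0.066). Counted over the 10 genes, 2 to 5 were called without a single library, with 2 remaining without B6/CAST ExE replicate 1, CAST/B6 epiblast replicate 2 or either CAST/B6 ExE library.

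The Pou5f1 promoter had 1.01, 0.366, 1.06 and 0.967 RPKM of H3K27me3 in wild-type epiblast and 1.37, 1.19, 1.21 and 1.27 RPKM in wild-type ExE. The tissues did not overlap, but the difference of 0.42 was not called (adjusted p = 0.14), and without B6/CAST epiblast replicate 1 it was called at 0.62 (adjusted p = 0.021). It was also called without genes under 0.5 RPKM (adjusted p = 0.031), with 5 kb on each side (adjusted p = 0.019), with 2500 bp on each side (adjusted p = 0.049) and with edgeR (0.63, adjusted p = 0.018). In matDKO/CAST the values were 0.438 and 0.272 RPKM in epiblast and 1.96 and 1.49 RPKM in ExE, and the difference of 1.38 (SE 0.24, adjusted p = 0.032) was the 1 of the 10 called by limma, against 0.693% of all genes. That call was lost without any 1 of its 4 libraries. Sall2 differed by 1.17 (adjusted p = 0.081), Fgf5 by 1.16 (adjusted p = 0.088) and Otx2 by 1.13 (adjusted p = 0.074) in matDKO/CAST, and all 3 were called without genes under 0.5 RPKM, after quantile normalization and with edgeR (1.13 to 1.88, adjusted p of 2.8e-05 to 0.0018).

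At Nanog, Sox2, Utf1, Pou3f1 and Zic2, no difference of H3K27me3 was called at the promoter windows by limma. Sox2 had 2.05, 1.32, 3.30 and 2.59 RPKM in wild-type epiblast and 1.72, 1.79, 3.14 and 2.08 RPKM in wild-type ExE, a difference of -0.05. Pou3f1 had the highest H3K27me3 of the 10 genes in wild-type epiblast, 2.98, 2.20, 4.96 and 4.05 RPKM, and 3.34, 2.57, 4.19 and 3.87 RPKM in ExE, a difference of 0.01. Utf1 ranged from 0.660 to 3.59 RPKM in epiblast and from 0.601 to 2.3 RPKM in ExE, Zic2 from 0.197 to 0.629 and from 0.207 to 1.12 RPKM, and Nanog from 0.0493 to 0.440 and from 0.436 to 0.713 RPKM. The smallest adjusted p of these was 0.077, for Nanog, at a difference of 0.55. Nanog was called higher in ExE after quantile normalization (0.54, adjusted p = 0.019), with edgeR (1.39, adjusted p = 7.1e-05), with 5 kb on each side (0.22, adjusted p = 0.033) and without B6/CAST epiblast replicate 2 (0.75, adjusted p = 0.034). Zic2 was called higher with promoters of 2500 bp on each side (0.57, adjusted p = 0.027) and with 5 kb on each side (0.45, adjusted p = 0.044). Sox2 and Pou3f1 had H3K4me3 and H3K27me3 above the range of the input in every wild-type library of both tissues.

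**Figure D2:**
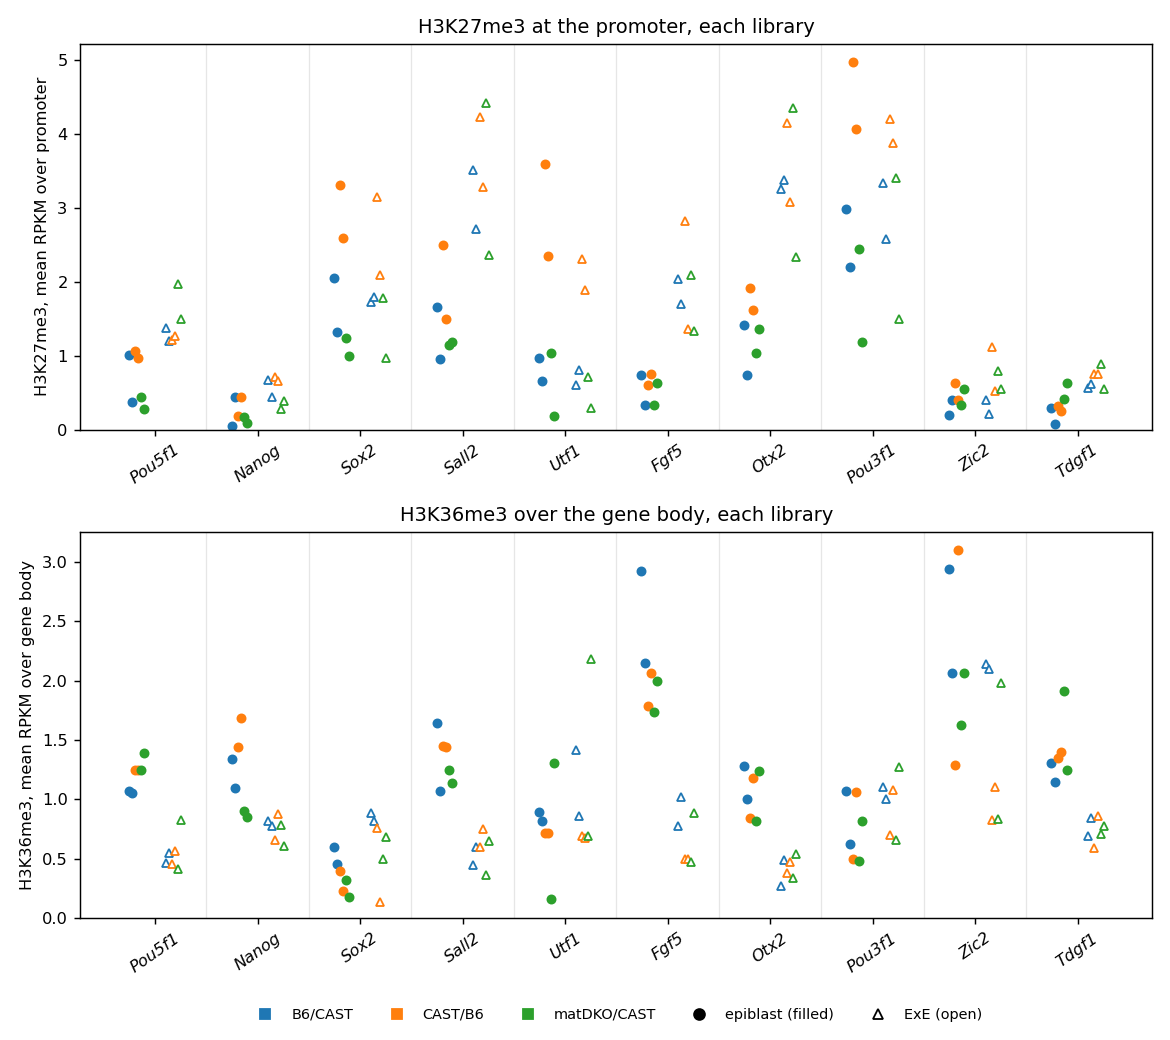
H3K27me3 over promoters and H3K36me3 over gene bodies of the 10 genes in RPKM, a point for each library by tissue and cross. Wild-type ExE points lie above wild-type epiblast points of H3K27me3 for Fgf5, Otx2, Sall2, Tdgf1 and Pou5f1, and below those of H3K36me3 for these 5 and Nanog.

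Read over the gene with 5 kb on each side, H3K27me3 was called at 8 of the 10 genes, of which Utf1 was lower in ExE (-0.56, adjusted p = 0.032). At a threshold of 0.01 it was called at 2, Fgf5 and Otx2, in B6/CAST alone at 1, Otx2, and in CAST/B6 alone at 0. Over all genes 1171 were higher and 1956 lower in ExE, against 3579 and 2051 with the 5 kb flanks, 1742 and 1815 after quantile normalization and 2847 and 2613 with edgeR. In these alternatives Fgf5, Otx2, Sall2 and Tdgf1 kept a higher value in ExE.

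The authors' peak lists, made for each wild-type cross and tissue from both libraries together with chromstaR, showed the extent of these domains. H3K27me3 was called over 42500 bp at the Sall2 start in B6/CAST ExE and 52000 bp in CAST/B6 ExE, against 6500 and 7000 bp in epiblast. At Otx2 the peaks spanned 40500 and 92000 bp in ExE and 12500 and 11500 bp in epiblast. At Fgf5 they spanned 27000 and 24500 bp in ExE and were absent from both epiblast lists.

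Pou5f1 had H3K27me3 peaks of 29500 and 29000 bp in ExE, and of 7000 bp in B6/CAST epiblast with none in CAST/B6. Sox2 had 42000 and 40000 bp in ExE and 37000 and 38000 bp in epiblast, so the domain at Sox2 was of like extent in both tissues. Pou3f1 had 37500 and 70500 bp in ExE and 17500 and 36500 bp in epiblast. For Utf1, Tdgf1 and Zic2 the crosses disagreed in ExE, with 6500 and 174000 bp at Utf1, none and 182000 bp at Tdgf1, and 9000 and 51500 bp at Zic2. Nanog had an H3K27me3 peak in CAST/B6 ExE only, of 1500 bp. The ExE lists held 21885 and 22202 H3K27me3 peaks over the genome and the epiblast lists 10938 and 11628, so more was called in ExE altogether.

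**Figure D3:**
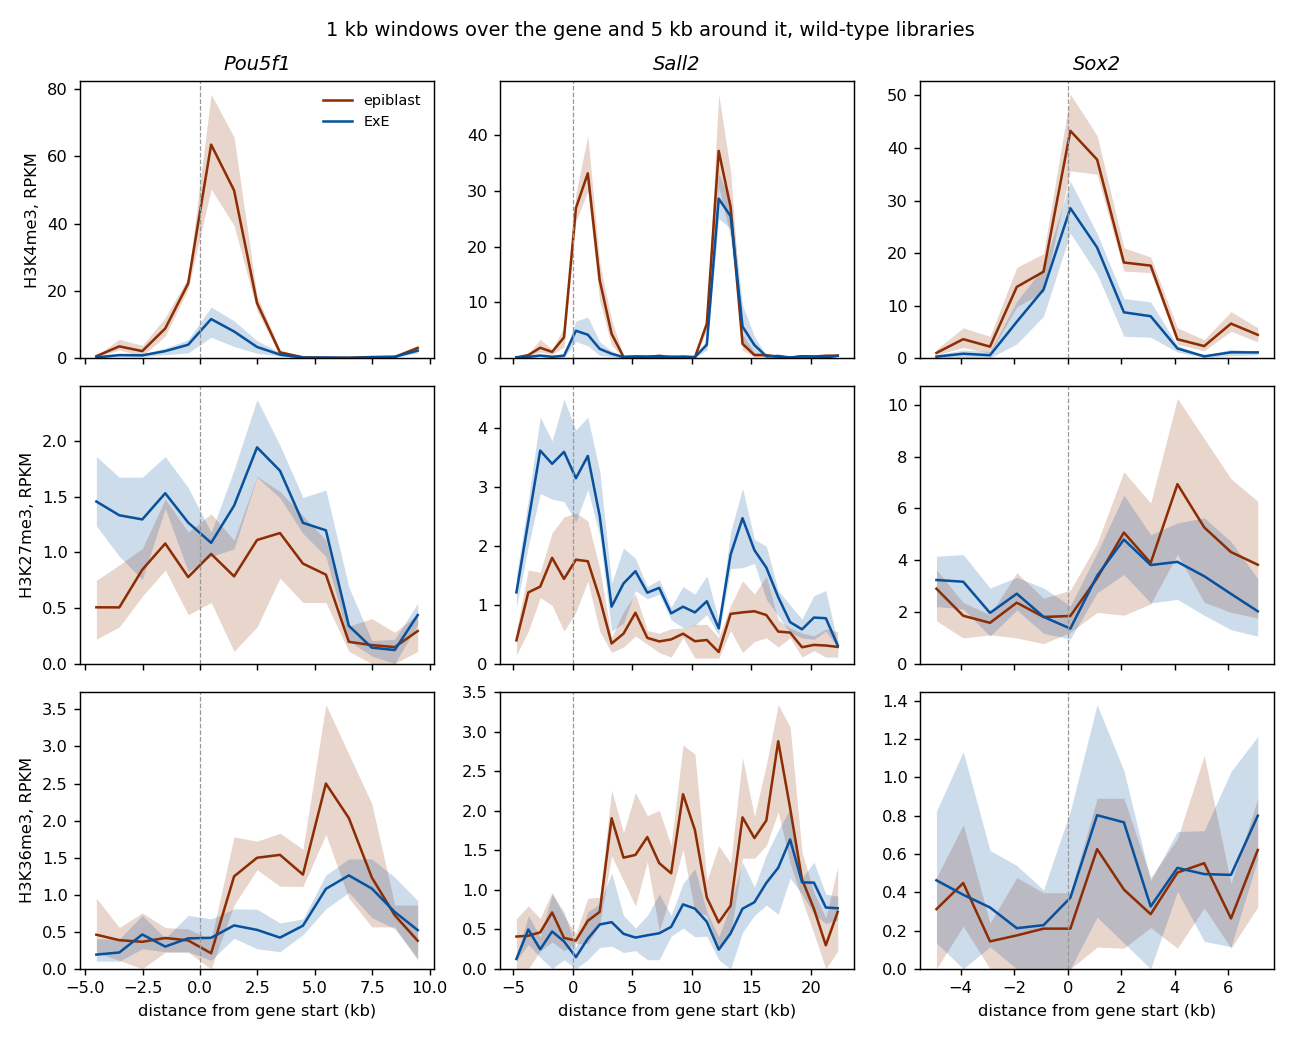
H3K4me3, H3K27me3 and H3K36me3 in RPKM per 1 kb window against distance from the gene start (kb) for Pou5f1, Sall2 and Sox2, as the mean line and the range over the 4 wild-type libraries of each tissue. The H3K4me3 peak at the start of Pou5f1 and Sall2 is low in ExE, while that downstream in Sall2 and that of Sox2 are present in both tissues.

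A promoter with both an H3K4me3 and an H3K27me3 peak is commonly called bivalent. By these lists all 10 genes had an H3K4me3 peak within 1000 bp of the start in both tissues and crosses. Such a peak was common over all genes. H3K4me3 alone was called at 46.8% and 42.9% of them in B6/CAST and CAST/B6 epiblast, and at 42.0% and 37.2% in ExE. The genes with both marks, given below, come on top of these. Both marks were present at 6 genes in B6/CAST epiblast (Pou5f1, Sox2, Sall2, Utf1, Otx2 and Pou3f1), against 22.3% of all genes, and at 5, without Pou5f1, in CAST/B6 epiblast, against 24.5%. In B6/CAST ExE Fgf5 and Zic2 were added to those 6, making 8, against 28.6% of all genes, and in CAST/B6 ExE both marks were called at all 10, against 30.3%. With peaks over the start base itself, the count in B6/CAST ExE was 7, without Zic2, against 23.2% of all genes. Peaks in a pooled tissue do not show that both marks lie on the same nucleosomes or in the same cells.

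H3K36me3 over the gene body was lower in wild-type ExE at 6 of the 10 genes, against 6.23% of all genes, and these were the 6 genes with less H3K4me3, measured in part on the same pools. The median difference over the 10 genes was -0.54, while it was 0.10 over all genes.

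Fgf5 had the largest difference of H3K36me3. Its body had 2.92, 2.15, 1.79 and 2.07 RPKM in wild-type epiblast and 0.771, 1.02, 0.498 and 0.494 RPKM in wild-type ExE, with 1.74 and 2.00 against 0.471 and 0.881 RPKM in matDKO/CAST. No ExE library reached an epiblast library, and the wild-type difference was -1.20 (SE 0.13, adjusted p = 0.00090).

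Pou5f1 had 1.07, 1.05, 1.25 and 1.25 RPKM in wild-type epiblast and 0.460, 0.545, 0.453 and 0.566 RPKM in wild-type ExE, a difference of -0.72 (SE 0.11, adjusted p = 0.0024). Sall2 had 1.65, 1.07, 1.45 and 1.44 RPKM against 0.447, 0.598, 0.595 and 0.749 RPKM, a difference of -0.79 (SE 0.12, adjusted p = 0.0028). So the body of Sall2 had less H3K36me3 in ExE while its downstream start had no called H3K4me3 difference. Otx2 had 1.28, 1.00, 0.842 and 1.18 RPKM against 0.271, 0.489, 0.376 and 0.468 RPKM, a difference of -0.81 (SE 0.14, adjusted p = 0.0039).

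Nanog and Tdgf1 had smaller fitted wild-type differences than the other called genes, and whether the genes differ in it was not tested. Nanog had 1.34, 1.09, 1.44 and 1.68 RPKM in wild-type epiblast and 0.819, 0.771, 0.657 and 0.876 RPKM in wild-type ExE (-0.55, adjusted p = 0.0024). In matDKO/CAST its libraries had 0.898 and 0.846 RPKM in epiblast and 0.780 and 0.608 RPKM in ExE (-0.20, adjusted p = 0.26). Tdgf1 had 1.31, 1.14, 1.34 and 1.4 RPKM against 0.690, 0.843, 0.592 and 0.860 RPKM in the wild types (-0.53, adjusted p = 0.0085). Both genes were apart between the wild-type tissues.

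Sox2, Utf1, Pou3f1 and Zic2, not called by limma for H3K4me3 at the promoter, were not called for H3K36me3 either. Sox2 differed by 0.27 (adjusted p = 0.33), with 0.226 to 0.594 RPKM in wild-type epiblast and 0.756, 0.813 and 0.881 RPKM in 3 ExE libraries, but 0.135 RPKM in CAST/B6 ExE replicate 2, without which the difference was 0.52 and called higher (adjusted p = 0.023). Zic2 had 1.29 to 3.10 RPKM in epiblast and 0.824 to 2.14 RPKM in ExE (-0.49, adjusted p = 0.19), and it was called lower after quantile normalization (-0.90, adjusted p = 0.031). Utf1 and Pou3f1 differed by 0.10 and 0.19, and both had values below 0 after quantile normalization (-0.21 and -0.10). The bodies of Sox2, Utf1 and Pou3f1 are short, with 3, 3 and 5 windows of 1 kb, but that of Pou5f1, which was called, also has 5. The part of body length in the calls was not tested.

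In matDKO/CAST, 4 of the 10 genes had lower H3K36me3 in ExE, against 1.79% of all genes. Fgf5 differed by -1.03 (adjusted p = 0.019), Sall2 by -0.77 (adjusted p = 0.032), Tdgf1 by -0.73 (adjusted p = 0.029) and Pou5f1 by -0.72 (adjusted p = 0.026). Otx2 differed by -0.70 and missed the threshold (adjusted p = 0.053). With the replicate number as a block 0 of the 10 were called. The count was 0 at a threshold of 0.01, and it was 0 without matDKO/CAST epiblast replicate 2, 2 without epiblast replicate 3 and 1 without ExE replicate 2. Over all genes in the wild types 6439 were higher and 1294 lower in ExE, but 1016 and 1413 after quantile normalization, 4732 and 4009 with edgeR and 6960 and 419 without genes under 0.5 RPKM. The 6 wild-type calls were kept under each of these.

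**Figure D4:**
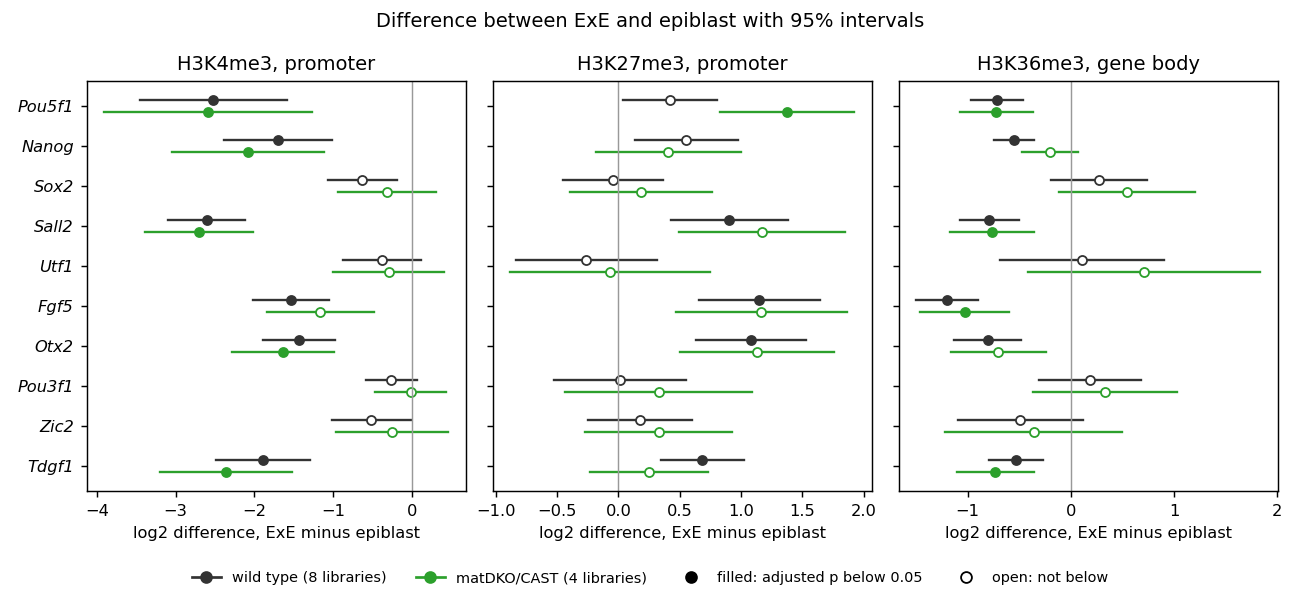
Log2 difference, ExE minus epiblast, of each mark at each of the 10 genes in the wild types and in matDKO/CAST, with 95% intervals. In the wild types Pou5f1, Nanog, Sall2, Fgf5, Otx2 and Tdgf1 lie below 0 for H3K4me3 (-1.44 to -2.61) and H3K36me3 (-0.53 to -1.20), and Sox2, Utf1 and Pou3f1 lie closer to 0.

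The design also asks whether the loss of the mother's DNA methylation, or the direction of the cross, changed the marks. No member was called for H3K4me3 in matDKO/CAST against B6/CAST epiblast (0.00481% of all genes called) or ExE (0.00481%), in the change of the tissue difference between these crosses (0%), or in CAST/B6 against B6/CAST epiblast (0%) or ExE (0%). At an unadjusted p under 0.05 there were 2 members in matDKO/CAST against B6/CAST ExE, 1 in CAST/B6 against B6/CAST ExE and 0 in the others. With edgeR there were 2 in matDKO/CAST against B6/CAST ExE, Otx2 (-0.82, adjusted p = 0.046) and Tdgf1 (-0.93, adjusted p = 0.026), where edgeR called 0.322% of all genes. In CAST/B6 against B6/CAST ExE edgeR called 4, Otx2 (-0.88, adjusted p = 9.3e-04), Tdgf1 (-0.82, adjusted p = 0.0031), Sall2 (-0.70, adjusted p = 0.018) and Fgf5 (-0.48, adjusted p = 0.0135), and 0 in the other 3 comparisons. For CAST/B6 against B6/CAST ExE edgeR called 19.2% of all genes. In CAST/B6 ExE replicate 1 each of these 4 genes had less H3K4me3 than in the other library of its group, as given above.

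For H3K27me3, 0 of the 10 were called in matDKO/CAST against B6/CAST epiblast (0.00481% of all genes) or ExE (0%), in the change of the tissue difference (0%), or in CAST/B6 against B6/CAST epiblast (0%) or ExE (0%). The members at an unadjusted p under 0.05 were 1, 0, 0, 2 and 2 in this order. Utf1 had 0.962 and 0.660 RPKM in B6/CAST epiblast, 3.59 and 2.34 in CAST/B6 epiblast and 1.04 and 0.181 in matDKO/CAST epiblast. In ExE it had 0.601 and 0.804, 2.3 and 1.88, and 0.705 and 0.291 RPKM. The CAST/B6 libraries were thus the highest in both tissues, and the difference from B6/CAST was 1.39 in epiblast (SE 0.36, adjusted p = 0.32) and 1.11 in ExE (adjusted p = 1). edgeR called Utf1 in both tissues (1.70, adjusted p = 5.8e-05, and 1.45, adjusted p = 0.0028) and called 0 members in the other 3 comparisons, while it called 0.356% and 0.0577% of all genes between CAST/B6 and B6/CAST in epiblast and ExE. The tissue difference of Pou5f1 was 0.74 larger in matDKO/CAST than in B6/CAST (adjusted p = 0.53), while its median over all genes was 0.12 larger.

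For H3K36me3, 0 of the 10 were called in matDKO/CAST against B6/CAST epiblast (0.0481% of all genes) or ExE (0.0337%), in the change of the tissue difference (0.00481%), or in CAST/B6 against B6/CAST epiblast (0.0192%) or ExE (4.97%). The members at an unadjusted p under 0.05 were 1, 0, 0, 0 and 1 in this order. edgeR called 0 in the first 4 and 2 in CAST/B6 against B6/CAST ExE, Fgf5 (-0.94, adjusted p = 1.7e-04) and Zic2 (-1.25, adjusted p = 7.8e-04), where edgeR called 29.0% of all genes. With 2 libraries a group these comparisons had wide intervals, and a missing call does not show that the crosses were alike. The comparisons against B6/CAST share those libraries.

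Alleles were compared in peaks, with reads assigned to the mother's or the father's genome by single nucleotide differences between the strains. A bias was called where both wild-type crosses passed the threshold (edgeR, adjusted over all informative peaks of a table), as imprinted where the same parent was higher and as strain-specific where the same strain was higher. Of the 44 peaks assigned to members by name, 34 had at least 20 reads in 1 wild-type allele column. The assignment by name leaves out Sox2, whose peaks carry the name Sox2ot, and most peaks of Zic2, named Zic5, Gm5089, Gm10837 or 2610035F20Rik. Peaks over the starts of Utf1 and Otx2 in part carry the names Kndc1, Gpr123 and U6, that of Tdgf1 in ExE H3K27me3 the name Myl3, and that of Pou3f1 the name 3100002H09Rik.

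Only 1 of the 34 peaks was called in both crosses, the H3K27me3 domain over Sall2 in ExE (chr14:52307500-52363500), and it was strain-specific with the CAST allele higher. In B6/CAST it had 225 maternal and 282 paternal reads in the first library and 188 and 256 in the second. In CAST/B6 it had 471 and 269, and 251 and 165. The maternal share was 43.4% in B6/CAST, with a CAST father, and 62.5% in CAST/B6, with a CAST mother, so the CAST allele had more reads in 4 of 4 wild-type libraries.

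The log2 ratio of maternal to paternal reads at the Sall2 domain was -0.46 in B6/CAST (adjusted p = 0.0018) and 0.74 in CAST/B6 (adjusted p = 2.3e-08), while 5.67% of informative ExE H3K27me3 peaks were called in both crosses. In matDKO/CAST it had 89 and 106, and 69 and 68 reads, a maternal share of 47.6%. The B6/CAST call was lost with DESeq2 (-0.47, adjusted p = 0.14) and without B6/CAST replicate 1 (-0.51, adjusted p = 0.067) or 2 (-0.42, adjusted p = 0.115). In a joint fit of both wild-type crosses the B6 allele was lower by 0.61 on the log2 scale, with the difference between the strains at an adjusted p of 3.3e-12, while 23.3% of peaks passed for this term.

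The H3K27me3 domains over 8 of the other starts in ExE were informative, while the peak over the Nanog start had 24, 28 and 9 reads in the 3 crosses and was not tested. The Pou5f1 domain had a maternal share of 45.8% in B6/CAST and 52.7% in CAST/B6, with 45.0% for matDKO/CAST, and Fgf5 had 50.5%, 50.9% and 59.5%. Otx2 had 54.4%, 50.9% and 55.5%, and Sox2 50.2%, 50.7% and 58.4%. Zic2 stayed between 49.7% and 51.8% and Tdgf1 between 50.5% and 53.1%. The Tdgf1 domain, named Myl3, reaches far beyond the gene, with a peak of 182000 bp in the CAST/B6 list and none in the B6/CAST list. None of these domains was called in either wild-type cross.

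The other 2 domains differed in 1 cross. That over Pou3f1 (chr4:124603000-124674000) had a maternal share of 47.7% in B6/CAST and 58.9% in CAST/B6, with 54.7% for matDKO/CAST, and in the joint fit the B6 allele was lower by 0.38 on the log2 scale (adjusted p = 1.2e-06). That over Utf1 (chr7:139796000-139970000), which also covers its neighbours, had 44.6%, 47.4% and 54.6% maternal reads. Its log2 ratio was -0.39 in B6/CAST (adjusted p = 4.8e-04) and -0.13 in CAST/B6 (adjusted p = 0.205), and the parent term of the joint fit was -0.26 (adjusted p = 1.7e-04), while 7.27% of peaks passed for that term. The change of the ratio in matDKO/CAST was 0.38 and was not called (adjusted p = 0.44).

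**Figure D5:**
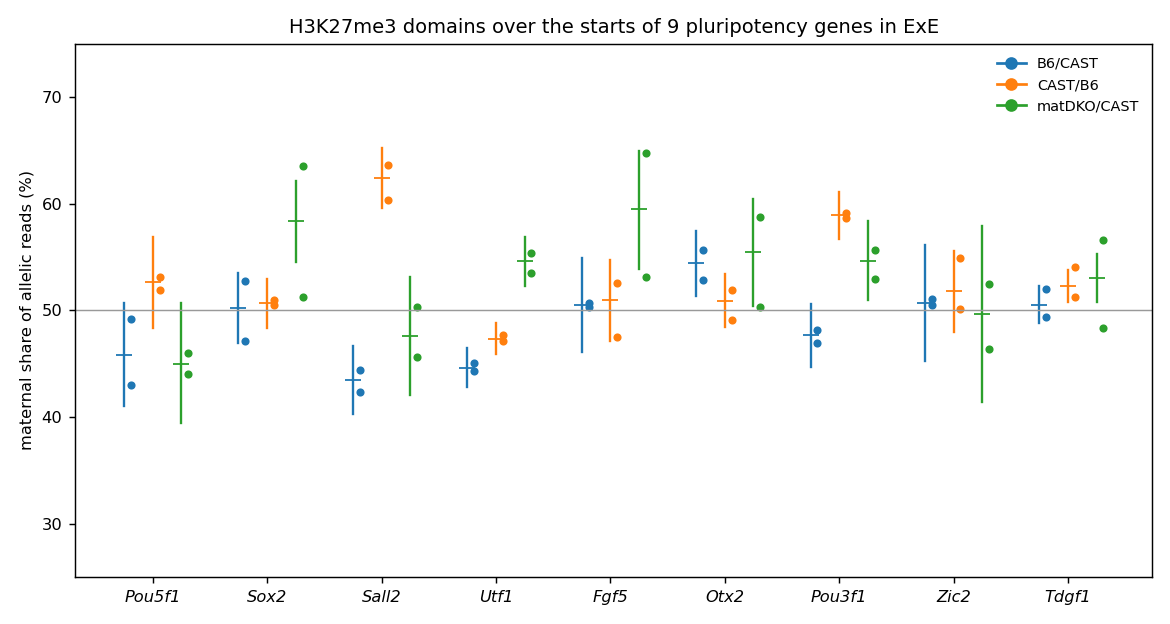
Maternal share in percent of allelic H3K27me3 reads in ExE over the domain at the start of 9 of the genes, by cross, with a point for each library, a tick for the pooled share and a line for its 95% binomial interval, which covers counting error only. The Sall2 share lies at 43.4% in B6/CAST and 62.5% in CAST/B6, on either side of 50%.

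No member peak was called in both crosses in the other 5 tables. The share of all informative peaks called there was 1.33% for H3K27me3 in epiblast, 0.488% and 1.35% for H3K36me3 in epiblast and ExE, and 0.949% and 4.27% for H3K4me3. At an unadjusted p under 0.05 in B6/CAST and in CAST/B6 there were 0 and 0 member peaks for H3K27me3 in epiblast, 1 and 0 for H3K36me3 in epiblast, 0 and 0 in ExE, 0 and 0 for H3K4me3 in epiblast and 1 and 1 in ExE, and DESeq2 called 0 in each. The H3K4me3 peaks over the 10 starts had maternal shares of 46.9% to 55.4% in B6/CAST epiblast and 43.2% to 52.6% in CAST/B6 epiblast, and of 46.0% to 56.6% and 40.2% to 54.1% in ExE. The peak over Pou5f1 had 51.8% and 49.8% in epiblast and 48.5% and 54.1% in ExE.

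In ExE the joint fit found more H3K4me3 on the B6 allele of the peaks at Sox2 and Nanog. The Sox2 peak had a maternal share of 54.7% in B6/CAST, of 41.4% in the reciprocal cross and of 49.8% in matDKO/CAST, with a B6 over CAST log2 ratio of 0.33 (adjusted p = 0.0019). The peak over the Nanog start had 205 maternal and 157 paternal, and 177 and 136 reads in B6/CAST, 61 and 86, and 87 and 126 in CAST/B6, and 104 and 115, and 96 and 63 in matDKO/CAST. Its ratio was 0.39 (adjusted p = 0.022), and 19.0% of ExE H3K4me3 peaks passed for that term. Neither was called in both crosses when these were fitted separately. With the library as a block the Nanog peak was called in B6/CAST (0.34, adjusted p = 0.021).

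The change of the allelic ratio between matDKO/CAST and B6/CAST was called at 0 member peaks in all 6 tables, with edgeR and with DESeq2. For H3K4me3 0.674% of all informative peaks were called in epiblast and 0.892% in ExE, for H3K27me3 0.179% and 0.742%, and for H3K36me3 0.163% and 0.363%. At an unadjusted p under 0.05 there was 1 member peak for H3K27me3 in epiblast, and there were 0 in the other 5 tables. The informative member peaks held as few as 49 reads over both B6/CAST libraries for epiblast H3K27me3 and 65 for ExE H3K36me3. For epiblast H3K4me3 they held 234 to 2783. In matDKO/CAST the epiblast H3K27me3 peaks of Sall2 and Pou5f1 held 11 and 23 reads. The part of depth in the missing calls was not tested.

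Other genes of the pluripotency network, taken from lists of naive and of formative and primed genes, did not all follow the 10. Esrrb is on the naive list and also on that of the ExE markers, and the paper names it as expressed preferentially in ExE. Of 16 naive genes, which mark the preimplantation state, 0 had lower and 3 had higher H3K4me3 in wild-type ExE, with a median difference of 0.36, while 2.01% of all genes were called higher. In matDKO/CAST 2 were lower and 2 higher, against 4.72% and 0.544% of all genes. In the wild types H3K27me3 was lower at 9 and higher at 1 of them, against 9.41% and 5.64% of all genes. H3K36me3 was higher at 8 and lower at 0, against 31.0% and 6.23%, and the all-gene count of higher H3K36me3 fell from 6439 to 1016 after quantile normalization. Klf2, Klf4, Klf5 and Tfcp2l1, transcription factors of the naive network, had H3K27me3 differences of -1.08, -1.06, -1.51 and -1.13.

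Of 22 formative and primed genes, 8 had lower and 0 had higher H3K4me3 in wild-type ExE, with a median of -0.49, against 7.76% and 2.01% of all genes. Among them were Foxd3 (-1.81), a forkhead factor of the epiblast, Lin28b (-0.63), an RNA-binding protein, Zscan10 (-0.72), a zinc-finger factor, and Nodal (-0.97), the ligand for which Tdgf1 is a co-receptor. H3K36me3 was lower at 6 and higher at 2 of the 22, against 6.23% and 31.0% of all genes. H3K27me3 was higher at 1 and lower at 2, near the 5.64% and 9.41% of all genes. The medians of the 2 lists lay on either side of that of all genes for H3K4me3 (-0.02).

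The gene whose 18 group means over marks, tissues and crosses were nearest to those of Pou5f1 was Igfbp2, at a Euclidean distance of 1.75 on the log2 scale, followed by Tox3 (1.95), Rragd (2.05), Car14 (2.13) and Fgf5 (2.24). Among the 20779 genes ranked, Tdgf1 came at place 206, Sall2 at 393, Utf1 at 551, Otx2 at 1007, Sox2 at 1243, Nanog at 1627, Pou3f1 at 3759 and Zic2 at 5827, and the median distance was 5.58. The distance takes in the level of each mark as well as its difference between tissues.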

How the data were processed

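Native ChIP-seq reads were trimmed with Trim Galore (0.4.4) and aligned with Bowtie2 (2.3.2) to GRCm38 by the authors, per the labels, and split by allele with SNPsplit. How reads with several matches were treated is not given in the sources used here, and processed copies of Pou5f1 and Nanog elsewhere in the genome share exon sequence with them. The authors deposited RPKM per 1 kb window for each library, the maternal and paternal read counts per peak, and chromstaR peak lists whose score column was not used here. For matDKO/CAST, reads of the 129 strain were added to the maternal set by the authors. Low RPKM values gave whole reads in 100% of cases (tolerance 0.1), so library depth was recovered as 2.09 to 22.9 M reads, and allele columns held 135909 to 4036950 reads.

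Window values were averaged per gene and tested as log2(RPKM + 0.5) in limma (3.58.1), with a trend, over the 12 libraries of a mark and 6 group means. Allele counts were tested per cross with edgeR (4.0.16, quasi-likelihood) in autosomal peaks with at least 20 reads in 1 wild-type allele column. All p-values are two-sided with Benjamini-Hochberg adjustment at 0.05. DESeq2 (1.42.0), edgeR on recovered reads, other pseudocounts (0.1 and 1), regions, filters and normalizations, and fits without single libraries were alternatives. Scripts were tested on simulated data.

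The rule named all 10 genes, at the peak over the gene start for alleles, and list genes in list order. Where few or none of the 10 were called, the called ones are named and the others counted. The members and lists were chosen with earlier results of these data known. The RefSeq starts were an alternative chosen after seeing the data. Deviations of same-numbered epiblast and ExE libraries from their group means correlated at 0.110 to 0.228 for H3K4me3, above 0.1 in each pair, and at -0.034 to 0.356 over all 15 pairs of the 3 marks, 10 of them above 0.1. With 2 libraries a group, both pairs of a cross give the same correlation, and no source states that the numbers mark shared embryos. Binomial intervals (95%, exact) cover counting error only.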

Additional observations from a re-analysis of the deposited data

Results flagged for a closer look

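In 60 groups of 4 wild-type libraries, a gene's highest or lowest library stood apart from the other 3 by Dixon's criterion in 4, where chance gives about 1 in 20. For H3K27me3 at Pou5f1 in epiblast, B6/CAST replicate 2 had 0.366 RPKM against 0.967, 1.01 and 1.06. For H3K4me3 at Nanog in epiblast, CAST/B6 replicate 2 had 14.1 RPKM against 12.8, 12.9 and 13.0, a small difference. H3K36me3 over Sox2 in ExE was 0.135 RPKM in CAST/B6 replicate 2 against 0.756, 0.813 and 0.881 RPKM. H3K4me3 at Fgf5 in ExE was 8.09 RPKM in CAST/B6 replicate 1 against 15.6, 15.7 and 16.6 RPKM. In that library the summed H3K4me3 of the 10 genes was also the lowest of the 6 ExE libraries, at 91.2 RPKM against 98 to 147 RPKM in the others.

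With both wild-type crosses in a joint fit, the strain term passed the threshold at 4 peaks, which means that the maternal bias differed between the reciprocal crosses. The B6 over CAST log2 ratio was -0.61 at the ExE H3K27me3 domain over Sall2 and -0.38 at that over Pou3f1, which the tables name 3100002H09Rik. It was 0.33 at the ExE H3K4me3 peak over Sox2, named Sox2ot, and 0.39 at the ExE H3K4me3 peak over Nanog. The difference between strains was also called at 23.3% of all informative ExE H3K27me3 peaks and 19.0% of ExE H3K4me3 peaks.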

How the results depend on the processing

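No result changed direction past the threshold. The wild-type H3K4me3 count (6 of 10) was 1 in B6/CAST alone and 6 without any single library, and it was 9 with edgeR. The wild-type H3K27me3 count (4) was 8 with 5 kb on each side, 2 at a threshold of 0.01, 1 in B6/CAST alone, 0 in CAST/B6 alone and 2 to 5 without single libraries. The wild-type H3K36me3 count (6) was 3 in CAST/B6 alone and 6 to 7 without single libraries. In matDKO/CAST the H3K4me3 count (5) was 2 at 0.01 and 1 to 5 without single libraries, the H3K27me3 count (1) was 4 without genes under 0.5 RPKM, 2 with promoters of 2500 bp on each side, 4 after quantile normalization, 4 with edgeR, 0 at 0.01 and 0 without any single library, and the H3K36me3 count (4) was 0 at 0.01 and 0 to 3. Counts of 0 between crosses became 2 (matDKO/CAST ExE), 4 (CAST/B6 ExE) for H3K4me3, 1 in both tissues (CAST/B6) for H3K27me3 and 2 (CAST/B6 ExE) for H3K36me3 with edgeR, and 1 for CAST/B6 ExE H3K4me3 (Otx2) and 1 in each tissue for CAST/B6 H3K27me3 (Utf1) without genes under 0.5 RPKM. The allelic call at Sall2 was lost with DESeq2 (0) and 0 to 1 remained without single libraries, and the joint fit called 1 ExE H3K4me3 peak assigned to a member by name (Nanog). The causes were not tested, except that a stricter threshold leaves fewer calls by construction. Of the values for single genes and peaks, 3969 stayed on their side of the threshold, 62 passed it and 79 no longer did.

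With the replicate number as a block, the matDKO/CAST counts moved from 5 to 0 for H3K4me3 and from 4 to 0 for H3K36me3. The matDKO/CAST count of H3K27me3 moved from 1 to 3 (Pou5f1, Sall2 and Pou3f1), and the wild-type count of H3K4me3 from 6 to 7. In matDKO/CAST only replicate 2 had both tissues for H3K4me3 and H3K27me3, so those block fits each rest on 1 pair. The unpaired libraries drop out. In the wild-type H3K4me3 fit CAST/B6 likewise enters by replicate 2 only. The part of the pairing and of the lost libraries in these counts was not tested. For no mark does a source state that same-numbered libraries of the tissues share embryos. The block left the wild-type counts of H3K27me3 (4) and H3K36me3 (6) and the counts of allelic calls in both crosses as they were, while the Nanog ExE H3K4me3 peak was then called in B6/CAST alone (0.34, adjusted p = 0.021). Over all genes the block called 0 for H3K4me3 and 1 for H3K36me3 in matDKO/CAST, in place of 1094 and 2850, and 825 in place of 366 for H3K27me3. The wild-type H3K36me3 total was 2913 with the block and 7733 without.

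Over all genes the wild-type calls numbered 2030 for H3K4me3 (4618 after quantile normalization, 4517 with edgeR, 1015 at 0.01, 490 and 1045 in B6/CAST and CAST/B6 alone), 3127 for H3K27me3 (5630 with 5 kb on each side, 5460 with edgeR, 1020 at 0.01, 464 and 983) and 7733 for H3K36me3 (2429 after quantile normalization, 4184 at 0.01, 974 in CAST/B6 alone). In matDKO/CAST they numbered 1094 for H3K4me3 (3304 quantile, 2741 edgeR, 1785 without genes under 0.5 RPKM, 361 at 0.01), 366 for H3K27me3 (2156 quantile, 1476 edgeR, 1497 without genes under 0.5 RPKM, 1139 with 5 kb, 733 with 2500 bp, 878 minus input, 6 at 0.01) and 2850 for H3K36me3 (540 quantile, 1 at 0.01). Some allelic peaks held few reads. The thinnest informative peak assigned by name held 49 over both B6/CAST libraries, and the epiblast H3K27me3 peak of Sall2 held 11 in matDKO/CAST. Wild-type H3K27me3 at Nanog, Tdgf1 and Zic2 was at or below the highest input value over the 10 promoters (0.828 RPKM), except 1.12 RPKM for Zic2 in 1 ExE library.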

Other observations

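For H3K4me3, fewer allelic reads than elsewhere stood behind the matDKO/CAST values of the members on chromosome 14. Relative to library totals, the epiblast H3K4me3 peaks over Otx2, Zic2 and Sall2 had 0.417, 0.558 and 0.717 times the allelic reads of B6/CAST, while the other 7 genes had 0.891 to 1.22 times. In ExE the ratios were 0.222 for Otx2, 0.295 for Sall2 and 0.40 for Zic2, but Tdgf1 on chromosome 9 had 0.459 and Pou3f1 on chromosome 4 had 0.675. For H3K27me3 the chromosomes were not apart. In epiblast Otx2 had 0.810 and Sall2 0.287, against 0.760 to 1.08 at the other genes with a peak. In ExE Otx2, Sall2 and Zic2 had 0.610, 0.572 and 0.726. Nanog had 0.614 there, from 9 matDKO/CAST reads, and the other genes 1.03 to 1.19. The total H3K4me3 of the same promoters, which needs no allele assignment, was 14.5 and 10.8 RPKM for Otx2 in matDKO/CAST epiblast against 13.4 and 15.1 RPKM in B6/CAST. In ExE it was 3.14 and 4.31 RPKM for Otx2 against 6.12 and 6.97 RPKM in B6/CAST, and 2.02 and 4.31 RPKM for Tdgf1 against 5.36 and 6.30 RPKM. The part of allele assignment and of total signal in these ratios was not tested.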
